A study of Homo sapiens with 3 samples.

Results

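Aminoacyl-tRNA synthetases, the enzymes that load each transfer RNA (tRNA) with its amino acid, were described in H1975, a widely used human lung adenocarcinoma cell line that carries mutant EGFR. The members were taken by gene name from a list of 35 genes, 19 for the cytosolic and 16 for the mitochondrial enzymes; no gene was picked by its own value, though the family was chosen with earlier results of these data known. All 19 cytosolic and 15 of the 16 mitochondrial genes were found, so 34 of the 16662 genes in the deposited table are described. VARS2 had no row under that name and is not analysed here, and the aspartyl enzymes are not on the list. All 34 passed a filter of a mean of at least 1 CPM (counts scaled to a common library size) over the libraries, as did 13879 genes in all.

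There were 3 bulk RNA libraries, 1 from cells given the control siRNA siNC, 1 from cells given siHHLA3-1 and 1 from cells given siHHLA3-3, each taken as a group of its own. Both siHHLA3 reagents are small interfering RNAs against HHLA3, whose own sequences are not analysed here. All cells were transfected near 70% confluency, held 6 h in serum-free medium and then 24 h with 10% serum, and no group was left untransfected. The batch field of the labels has a different value for each library, so siRNA and batch cannot be told apart, and there is no spread between replicates against which a difference could be set.

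Cytosolic synthetases supply charged tRNAs to the ribosomes of the cytosol, and a separate set of nuclear genes encodes the enzymes imported into mitochondria. Several cytosolic enzymes sit in a multisynthetase complex held together by the scaffold proteins AIMP1, AIMP2 and EEF1E1. GARS1 and KARS1 each supply the enzyme of both compartments from a single gene, and mitochondria make glutaminyl-tRNA indirectly, through EARS2 and an amidotransferase. When amino acids run short, the kinase GCN2 (gene EIF2AK4) senses uncharged tRNA, and the transcription factor ATF4 raises many cytosolic synthetase genes together with amino acid transporters and biosynthetic enzymes. WARS1, the tryptophanyl enzyme, is in addition a classical target of interferon gamma, which also induces the tryptophan-degrading enzyme IDO1.

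Sequences around the start sites are shown because ATF4 and interferon act through short motifs near gene starts, and values are given below by whether a gene holds one. RefSeq windows of 300 bases (250 before to 50 after a start, GRCh38.p14) were given for 30 of the listed genes. The core of the C/EBP-ATF response element, searched as TGATGCAA on both strands, was found in a window of 6 of these 30, against 1.08% of 27305 genes and 0.866% of 35116 windows. All 6 were cytosolic. The AARS1 window, chr16:70289457-70289756 on the minus strand, holds it at position -187 relative to the start site, in capitals here; in all but NARS1 the capitals are the reverse complement of the searched letters.
AARS1: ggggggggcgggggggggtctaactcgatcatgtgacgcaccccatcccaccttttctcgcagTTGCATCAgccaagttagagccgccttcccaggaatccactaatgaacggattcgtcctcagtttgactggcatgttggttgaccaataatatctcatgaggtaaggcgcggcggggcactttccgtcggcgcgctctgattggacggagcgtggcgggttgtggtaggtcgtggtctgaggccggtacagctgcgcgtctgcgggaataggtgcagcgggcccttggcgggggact
In the other 5 genes the match lay close to the start, and it is shown in capitals with up to 16 bases on each side.
CARS1, chr11:3057374-3057673, minus strand, match at -2: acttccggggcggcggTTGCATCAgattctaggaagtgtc
IARS1, chr9:92293648-92293947, minus strand, match at -13: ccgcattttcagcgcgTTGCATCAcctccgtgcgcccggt
MARS1, chr12:57487818-57488117, plus strand, match at -4: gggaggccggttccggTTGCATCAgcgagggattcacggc
TARS1, chr5:33440715-33441014, plus strand, match at 3: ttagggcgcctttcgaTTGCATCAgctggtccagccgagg
NARS1, chr18:57621787-57622086, minus strand, match at 15: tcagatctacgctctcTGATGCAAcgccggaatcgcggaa
A looser form, TGATGNAA, which contains the first, was found in 8 of the 30 against 4.46% of genes, the additional members being GARS1 and YARS2. A match is a run of letters and not a measured binding site.

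For WARS1, the core GAAANNGAA of the interferon-stimulated response element was found in the downstream of its 2 windows, chr14:100375298-100375597 on the minus strand, at position -55 (capitals). The same 9 letters were found in 4 of the 30 genes (WARS1, EARS2, GARS1 and IARS1) against 9.86% of all genes, and TTCNNNGAA, the gamma-activated site, in 5 of the 30 against 9.38%, WARS1 included.
WARS1: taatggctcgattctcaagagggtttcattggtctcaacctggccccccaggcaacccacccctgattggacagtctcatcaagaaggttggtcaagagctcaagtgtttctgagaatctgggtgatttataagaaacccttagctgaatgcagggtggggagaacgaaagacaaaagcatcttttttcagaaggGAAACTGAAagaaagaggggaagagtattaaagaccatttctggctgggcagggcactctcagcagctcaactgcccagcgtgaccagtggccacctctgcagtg

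A further set of sequences was taken from the 3' untranslated regions (UTRs), because 2 particular 7-base runs recur among the genes lower with each siRNA, in 28 of the 53 at least 2-fold lower with siHHLA3-1 and in 125 of the 205 with siHHLA3-3. CAGAATG was found for siHHLA3-1 and GTGAACT for siHHLA3-3 in an earlier scan of these same ratios, so neither is independent of the data. In GENCODE 29 transcripts, CAGAATG was in the 3' UTR of 6 of 34 synthetases (17.6%) against 18.7% of 11790 searched genes, and GTGAACT in 1 of 34 (2.94%) against 12.6%. Each line gives a member's site with the 7 bases in capitals, and for NARS2 and CARS2, which hold 2, the more 5' site.
NARS2, siHHLA3-1 7-mer: tgtgcatacagCAGAATGcatgtttggat
YARS2, siHHLA3-1 7-mer: aatcagaaaaaCAGAATGgactaggactc
IARS1, siHHLA3-1 7-mer: acccacttgggCAGAATGgactcacccac
YARS1, siHHLA3-1 7-mer: ttagcatcaggCAGAATGaatggcagaga
CARS2, siHHLA3-1 7-mer: catctcagcaaCAGAATGtcgccagctct
CARS1, siHHLA3-1 7-mer: tgcagatggccCAGAATGgaagcttccag
FARS2, siHHLA3-3 7-mer: agatatggtttGTGAACTggggcatcaat

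The libraries held 26950852 to 35069930 reads. From here on, 3 values given in a row are those of the siNC, siHHLA3-1 and siHHLA3-3 libraries in that order. HHLA3 itself was at 5.99, 1.55 and 0.735 CPM (192, 55 and 20 counts). Of 9 epithelial and lung adenocarcinoma markers 8 were listed, all above 1 CPM in every library, with summed levels of 5325, 5012 and 4168 CPM. With siHHLA3-3, 8 of the 8 were below siNC (median log2 ratio -0.26), against 4 of 8 with siHHLA3-1. Of all 13879 genes kept, 7141 were below siNC with siHHLA3-3 and 7186 with siHHLA3-1. Of 6 fibroblast markers 1 was listed, COL1A1 (10.9 to 24.5 CPM), and of 3 endothelial markers 1, CDH5 (3.01 to 19.2 CPM), both highest with siHHLA3-1. The part of these markers in the results was not tested. In bulk RNA, fewer cells of a kind and less RNA per cell cannot be told apart.

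Levels between genes were compared on the length-scaled deposited TPM. With siNC, WARS1 was the most abundant of the 34 at 546 TPM, followed by KARS1 at 324 TPM and TARS1 at 250.2 TPM, and all 3 kept those ranks in each library on that scale. Some of the lengths behind the deposited values exceed the annotated ones, as described for the pairs, while that of TARS1 is shorter (4.26 against 5.72 kb). With GENCODE 29 exon lengths WARS1 was still first in each library. AARS1 then ranked 3, 3 and 2, above KARS1 with siHHLA3-3, and TARS1 ranked 9, 7 and 8. The 19 cytosolic genes had medians of 115, 122 and 147 TPM, an order that was not kept with GENCODE 29 lengths (47.1, 37.5 and 45.7 CPM per kb). For the 15 mitochondrial genes the medians were 22.2, 18.7 and 23.6 TPM, close to the 18.3 to 18.7 TPM of all genes kept. IARS2, the mitochondrial isoleucyl enzyme, stood far above its group at 216, 172 and 186 TPM. At the other end was SARS2, the mitochondrial seryl enzyme, at 2.96, 2.17 and 2.67 TPM (63 to 86 counts). In GENCODE 29, 46.2% of the exon bases of SARS2 are shared with another protein-coding gene model on the same strand and 10.8% with MRPS12 on the opposite strand. Whether reads were divided among them cannot be read from the table.

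**Figure D1:**
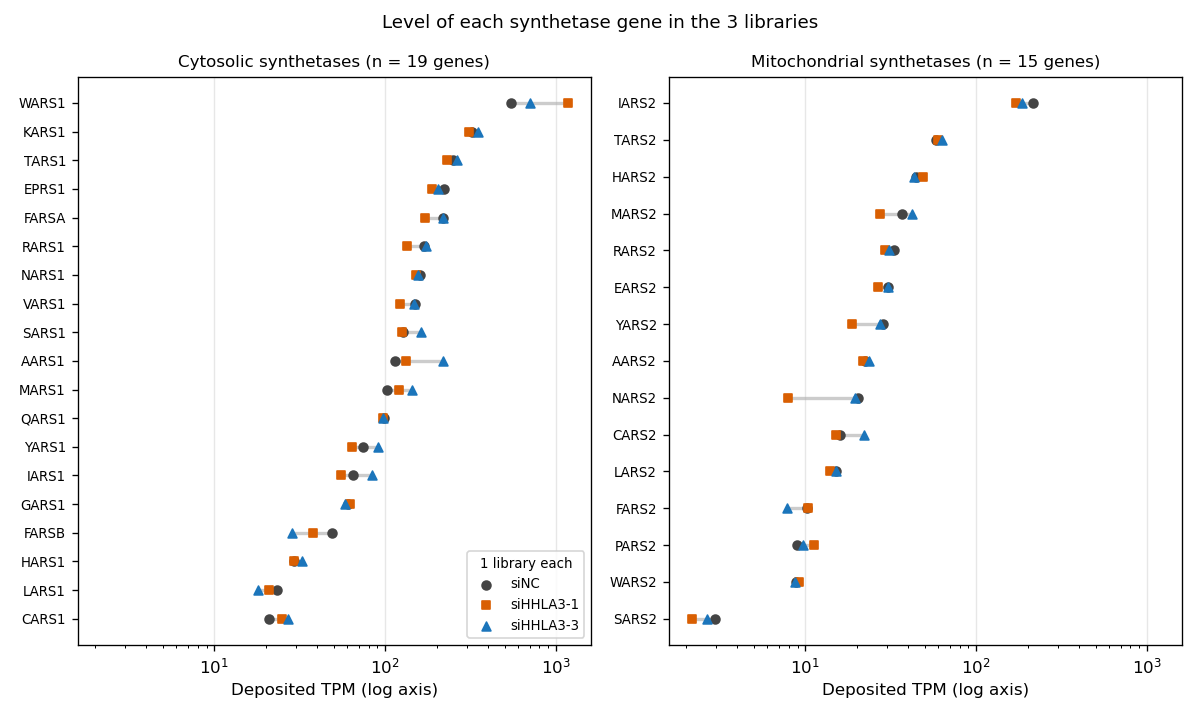
Deposited TPM (log axis) of the 19 cytosolic and 15 mitochondrial synthetase genes, ordered by their level with siNC; each point is 1 library and the grey bar spans the 3 libraries. WARS1, AARS1 and NARS2 have wide bars, while KARS1, QARS1 and GARS1 have narrow ones.

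Set side by side for the same amino acid, the cytosolic gene was above its mitochondrial partner in 14 of 16 pairs in every library. Some pairs share a gene, as FARS2 is set beside both FARSA and FARSB, and EPRS1 beside both EARS2 and PARS2. The median ratio of TPM was 4.97 with siNC, 4.49 with siHHLA3-1 and 4.87 with siHHLA3-3. WARS1 over WARS2 was the widest pair, at 62.1, 128 and 81.3, and NARS1 over NARS2 went from 7.88 with siNC to 19.1 with siHHLA3-1 and 7.94 with siHHLA3-3. The exceptions were HARS1 over HARS2 (0.655, 0.594 and 0.757) and IARS1 over IARS2 (0.298, 0.322 and 0.451). The length behind the deposited values was, however, over 1.5 times the GENCODE 29 exon length for 7 of the 34 genes, among them HARS1 (14.2 against 7.85 kb), GARS1 (17.4 against 4.15 kb) and IARS1 (22.4 against 7.40 kb). With GENCODE 29 lengths the HARS1 to HARS2 ratio was 1.19, 1.08 and 1.37, and the IARS1 to IARS2 ratio 0.909, 0.982 and 1.38. Thus 15, 15 and 16 of the pairs then had the higher cytosolic level. HARS1 and HARS2 share 437 exon bases on opposite strands, 5.56% and 11.7% of their own exon bases. As strand use in the counting was not given, reads there cannot be told apart, and which of these genes is higher is not settled. A gene's own ratio between libraries does not depend on its length.

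**Figure D2:**
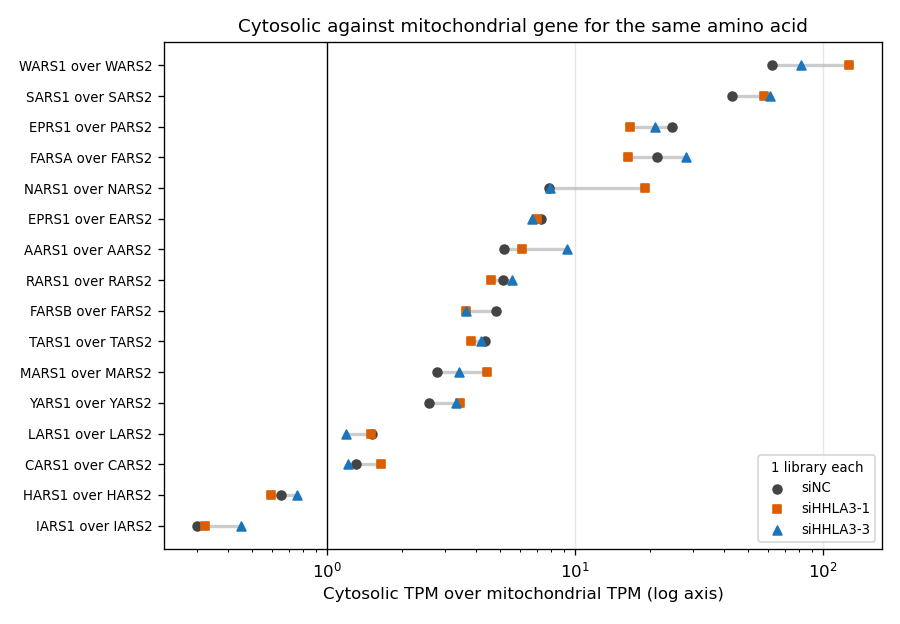
Ratio of cytosolic to mitochondrial TPM (log axis) for 16 pairs of genes that serve the same amino acid, with 1 point per library and a grey bar over the 3 libraries. The WARS1 and NARS1 pairs have their widest ratios with siHHLA3-1, at 128 and 19.1, and the vertical line marks equal levels.

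With siHHLA3-1, most synthetases of both compartments lay a little below siNC, while WARS1 was doubled and NARS2 was the member furthest below. WARS1 stood at 1015, 2089 and 1249 CPM. Its siHHLA3-1 library was thus the highest, 2.06-fold above siNC (95% counting interval 2.03 to 2.08), with a log2 ratio of 1.04 on the log2(CPM + 1) scale that is just past the 2-fold line. NARS2, the mitochondrial asparaginyl enzyme, stood at 18.8, 7.01 and 17.2 CPM. It was 2.68-fold lower with siHHLA3-1 (2.31 to 3.12), with a log2 ratio of -1.31, while its siNC and siHHLA3-3 levels were near each other. Intervals here are exact 95% binomial intervals that cover counting error only. Thus 1 of 34 synthetases was at least 2-fold higher, against 0.973% of all 13879 genes, and 1 at least 2-fold lower, against 0.382%. At 1.5-fold these were 1 higher (5.03% of all genes) and 2 lower (3.34%).

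The wider shape was a shallow shift. The median log2 ratio with siHHLA3-1 was -0.14 over the cytosolic and -0.18 over the mitochondrial genes, against -0.01 over all genes kept. Above siNC were 4 of 19 cytosolic and 3 of 15 mitochondrial genes, where 48.2% of all genes were. With the deposited TPM these were 5 and 5, and the median over all genes kept was then 0.04. The counting interval of the ratio lay wholly below 1 for 13 cytosolic and 9 mitochondrial genes, against 32.6% of all genes. It lay wholly above 1 for 4 and 1, against 28.7% of all genes. Deeper counts give narrower intervals, so these numbers and shares also depend on depth. The siNC counts ran from 1974 to 32573 over the cytosolic and from 86 to 8393 over the mitochondrial genes. Without WARS1 the cytosolic median was -0.16, and without NARS2 the mitochondrial median was also -0.16.

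YARS2, the mitochondrial tyrosyl enzyme, was the other member past 1.5-fold, at 17.99, 11.3 and 16.4 CPM. NARS2 and YARS2 both hold CAGAATG in the 3' UTR, as shown above. So do IARS1, YARS1, CARS2 and CARS1, whose log2 ratios with siHHLA3-1 were -0.28, -0.26, -0.13 and 0.19. The median over these 6 carriers was -0.27, and over all 2199 carriers among genes kept it was -0.09. The part of the 7-mer in these values was not tested.

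Among other mitochondrial enzymes, MARS2, for methionine, stood at 32.8, 23.2 and 35.7 CPM, and only its siHHLA3-1 library was low. IARS2 stood at 262, 199 and 215 CPM, lower with both siRNAs. SARS2 stood at 2.68, 1.89 and 2.31 CPM, with log2 ratios of -0.35 and -0.15. The remaining 8 mitochondrial genes (AARS2, EARS2, HARS2, LARS2, PARS2, RARS2, TARS2 and WARS2) had log2 ratios from -0.23 to 0.24 with siHHLA3-1 and from -0.15 to 0.06 with siHHLA3-3.

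On the cytosolic side with siHHLA3-1, the phenylalanyl enzyme is built from the subunits FARSA and FARSB. FARSA stood at 155, 117 and 149 CPM, low in the siHHLA3-1 library alone. FARSB stood at 96.6, 71.8 and 53.8 CPM, so it was lower with both siRNAs and lowest with siHHLA3-3. Thus the genes of the 2 subunits had like ratios with siHHLA3-1 (-0.40 and -0.42) and unlike ones with siHHLA3-3 (-0.06 and -0.83).

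The pattern of FARSA was shared by RARS1, the arginyl enzyme, at 170, 128 and 165 CPM. VARS1, the valyl enzyme, stood at 256, 201 and 241 CPM, lowest with siHHLA3-1 and a little below siNC with siHHLA3-3 (log2 ratio -0.09). EPRS1, a fused enzyme for glutamate and proline, stood at 345, 282 and 303 CPM, below siNC with both. All 7 cytosolic genes not commonly listed as ATF4 targets (FARSA, FARSB, HARS1, KARS1, QARS1, RARS1 and VARS1) were below siNC with siHHLA3-1, with a median of -0.35. So were 8 of the 12 cytosolic genes that are commonly listed, and 7186 of all 13879 genes kept.

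With siHHLA3-3, no synthetase reached 2-fold, and members of both compartments lay on either side of siNC. AARS1, the alanyl enzyme, stood at 344, 383 and 629 CPM. It was 1.83-fold higher with siHHLA3-3 (1.78 to 1.87), a log2 ratio of 0.87, against 0.15 with siHHLA3-1. FARSB, described above, was the member furthest below, 1.80-fold lower (1.69 to 1.91). At least 2-fold higher and lower were 0 and 0 of 34, against 0.807% and 1.48% of all genes, and at 1.5-fold 1 (AARS1, against 3.65%) and 1 (FARSB, against 5.57%).

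The median with siHHLA3-3 was 0.01 over the cytosolic and -0.08 over the mitochondrial genes, with -0.01 over all genes kept. The cytosolic value became -0.05 without the genes that carry either 7-mer and -0.01 without WARS1, so it lay on either side of 0 depending on the genes included. Above siNC were 10 of 19 cytosolic and 5 of 15 mitochondrial genes, where 48.5% of all genes were. With the deposited TPM these were 12 and 6, and the median over all genes kept was then 0.049. The counting interval lay wholly above 1 for 9 cytosolic and 1 mitochondrial gene, against 27.6% of all genes. It lay wholly below 1 for 7 and 3, against 30.6% of all genes. As with siHHLA3-1, these numbers also depend on depth, which was mostly lower for the mitochondrial genes.

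Within the cytosolic group, 12 genes that are commonly listed as ATF4 targets had a median of 0.26 with siHHLA3-3, 8 of them above siNC, where the share over all genes was 48.5%. The other 7 had a median of -0.06 with 2 above. With siHHLA3-1 these medians were -0.11 and -0.35. On the deposited TPM the siHHLA3-3 medians were 0.31 with 8 above for the 12 and 0.01 with 4 above for the 7. The list is not independent of the data, since higher ATF4 targets were known when it was drawn up. MARS1, the methionyl enzyme, stood at 210.4, 238 and 283 CPM, a log2 ratio of 0.43 with siHHLA3-3. In GENCODE 29, 355 of its exon bases (5.05%) overlap DDIT3, the ATF4 target CHOP, on the opposite strand. DDIT3 itself stood at 14.4, 21.1 and 56.2 CPM, and as strand use in the counting was not given, its reads and those of MARS1 cannot be told apart there.

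IARS1, the isoleucyl enzyme, stood at 423, 347 and 526 CPM, below siNC in one knockdown library and above it in the other. YARS1, for tyrosine, had the same order at 198, 165 and 231 CPM, as did SARS1, for serine, at 143, 135 and 175 CPM. CARS1, for cysteine, was above siNC in both at 61.5, 70.6 and 75.5 CPM. LARS1, for leucine, went the other way at 139, 121 and 104 CPM, with log2 ratios of -0.21 and -0.41, although it is on the ATF4 list. The 6 cytosolic genes not yet given (GARS1, HARS1, KARS1, NARS1, QARS1 and TARS1) had log2 ratios from -0.18 to -0.02 with siHHLA3-1 and from -0.12 to 0.10 with siHHLA3-3.

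**Figure D3:**
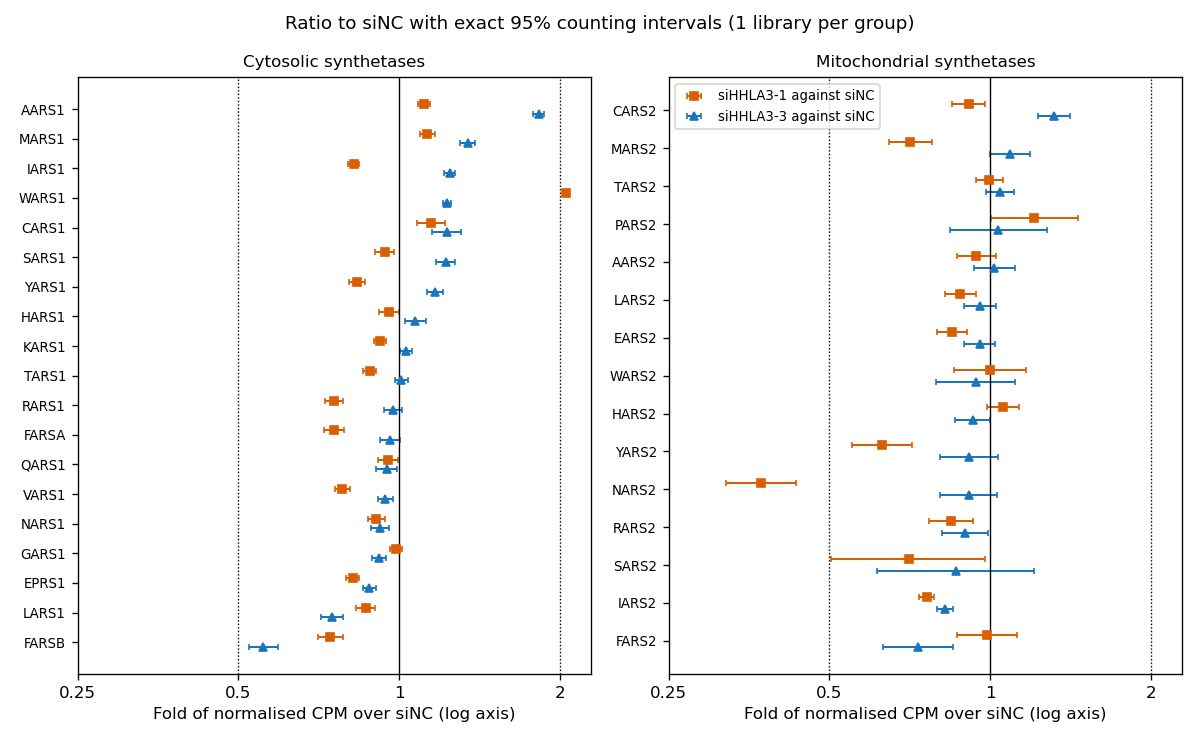
Fold of normalised CPM over siNC (log axis) for each synthetase gene, with siHHLA3-1 as squares and siHHLA3-3 as triangles, and exact 95% counting intervals as bars; dotted lines mark 2-fold. WARS1 (2.06) and NARS2, both with siHHLA3-1, lie past the dotted lines, and AARS1 with siHHLA3-3 (1.83) comes near.

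The genes shown above with the ATF4 motif were then set beside the rest. The 6 genes with TGATGCAA in a start window had a median log2 ratio of 0.30 with siHHLA3-3, from -0.12 for NARS1 to 0.87 for AARS1. Of these, 5 were above siNC, where 48.5% of all genes were. All 6 are also on the list of ATF4 targets, so this grouping is not separate from that list and shares its limit. The 10 cytosolic genes with a window but no match had a median of -0.05, from -0.83 to 0.30, with 4 above siNC. With siHHLA3-1 these medians were 0.01 and -0.10. On the deposited TPM the siHHLA3-3 medians were 0.36 with 5 above for the 6 and 0.02 with 6 above for the 10. NARS1 and TARS1, like IARS1 and MARS1, hold TGATGCAA near the start when both strands are read. With siNC and siHHLA3-3, NARS1 stood at 192 and 177 CPM and TARS1 at 311 and 314 CPM. The part of the motif in these values was not tested. FARS2, the mitochondrial phenylalanyl enzyme and the 1 synthetase with GTGAACT, stood at 14.4, 14.2 and 10.5 CPM. All 1488 carriers of GTGAACT among genes kept had a median of -0.19 with siHHLA3-3. CARS2, for cysteine, was at 48.9, 44.6 and 64.5 CPM, the highest ratio of a mitochondrial gene with siHHLA3-3 (0.39), and 3.12% of its exon bases overlap ING1 on the opposite strand.

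**Figure D4:**
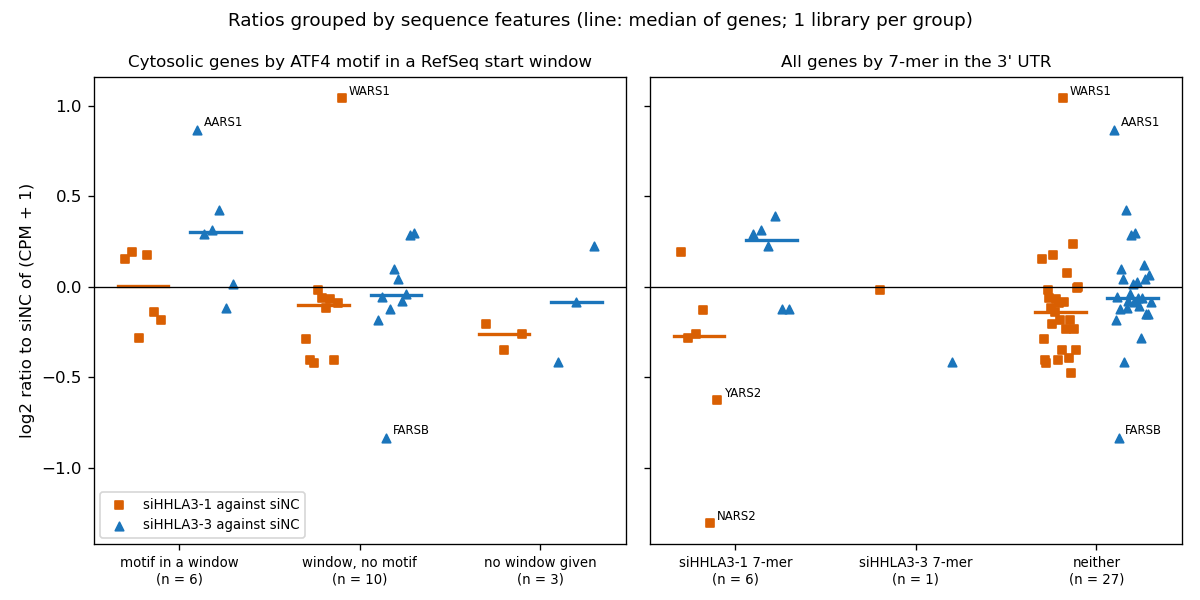
log2 ratio to siNC of (CPM + 1) for cytosolic genes by the ATF4 motif in a RefSeq start window (left) and for all 34 genes by the 7-mers in the 3' UTR (right); each point is 1 gene in 1 library and lines are medians. In the left panel the siHHLA3-3 median is 0.30 with the motif and -0.05 without (0.36 and 0.02 on the deposited TPM); in the right panel NARS2 and YARS2 are the lowest siHHLA3-1 points.

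In direct comparison of the knockdown libraries, synthetases of both compartments were mostly higher with siHHLA3-3 than with siHHLA3-1, and WARS1 was the main gene in the opposite direction. This comparison shares a library with each of those above. The median log2 ratio of siHHLA3-3 over siHHLA3-1 was 0.16 for the cytosolic and 0.11 for the mitochondrial genes, against 0.00 for all genes kept. Above 0 were 14 of 19 and 11 of 15, where 50.4% of all genes were. NARS2 was 2.45-fold higher (2.09 to 2.86), AARS1 1.64-fold higher (1.60 to 1.68) and IARS1 1.51-fold higher (1.48 to 1.55). WARS1 was 1.67-fold lower (1.65 to 1.69). At least 2-fold higher was 1 of 34 (0.757% of all genes) and lower 0 (2.12%). At 1.5-fold these were 4 (NARS2, AARS1, MARS2 and IARS1, against 4.4%) and 1 (WARS1, against 7.82%).

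The 7 synthetases of the multisynthetase complex (EPRS1, IARS1, KARS1, LARS1, MARS1, QARS1 and RARS1) did not move as a block. Their log2 ratios ran from -0.40 to 0.17 with siHHLA3-1 and from -0.41 to 0.43 with siHHLA3-3, with medians of -0.21 and -0.04 (0.03 for the latter on the deposited TPM). The 12 cytosolic genes outside it had medians of -0.11 and 0.06. Of the scaffolds, AIMP1 had log2 ratios of 0.04 and 0.07, AIMP2 of -0.36 and -0.07 and EEF1E1 of -0.13 and 0.05. By catalytic fold, the 9 cytosolic class I genes had medians of -0.21 and 0.22 and the 9 class II genes of -0.12 and 0.01, with EPRS1 holding a domain of each class.

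The pathways that the background names were read beside the synthetases. Of 29 ATF4 and amino acid response genes outside the synthetases, 28 were kept, and their median log2 ratio was 0.22 with siHHLA3-1 and 0.61 with siHHLA3-3. At least 2-fold higher were 0 with siHHLA3-1 (0.973% of all genes) and 10 with siHHLA3-3 (0.807%). Above siNC were 17 of 28 with siHHLA3-1, so 11 were below, and 25 of 28 with siHHLA3-3. Of all genes kept, 48.2% and 48.5% were above siNC. The genes named next are those with the largest mean ratio. CHAC1, which degrades glutathione, had log2 ratios of 0.68 and 1.96, DDIT3 of 0.52 and 1.89, and the stress sensor SESN2 of 0.76 and 1.38. The phosphatase subunit PPP1R15A had 0.61 and 1.53, and ASNS, asparagine synthetase, 0.63 and 1.498 from only 0.811 CPM with siNC. ATF3 had 0.71 and 1.24. Of the 34 synthetases, AARS1 alone had a siHHLA3-3 ratio (0.87) above the median of this list.

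For the interferon gamma response, 9 of 10 listed genes were kept. With siHHLA3-1 their median was 0.75, with 9 of 9 above siNC (48.2% of all genes) and 3 at least 2-fold higher (0.973%). With siHHLA3-3 the median was 0.07, from -0.99 to 0.59, with 6 above siNC (48.5% of all genes). IDO1 stood at 16.6, 48.4 and 11.9 CPM, and GBP1, an antiviral GTPase, at 57.1, 145 and 53.9 CPM. NLRC5, the transactivator of MHC class I genes, stood at 168, 325 and 202 CPM, and IRF1 at 56.9, 96.5 and 59.7 CPM. TAP1 (0.53 and 0.59) and PSMB9 (0.65 and 0.06) load and cut peptides for MHC class I. WARS1 had its highest level in the same library as IDO1, GBP1, NLRC5 and IRF1, and whether these share a cause was not tested.

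With 1 library per group, no test of a single siRNA was possible. When both knockdown libraries were taken as 2 samples against siNC, with 1 residual degree of freedom and siNC assumed to vary like them, edgeR's quasi-likelihood test called 0 of 34 synthetases at a Benjamini-Hochberg adjusted p under 0.05. It called 1 of all 13879 genes (0.00721%), and DESeq2 called 0 of 34 and 5 of all genes (0.036%). With so few genes called in all, a count of 0 among 34 says nothing about the synthetases in particular.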

How the data were processed

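RNA of 3 H1975 libraries was sequenced, 1 per siRNA. The authors deposited raw whole-number read counts per gene. Per the file headers, CPM, TPM and FPKM were deposited beside them, CPM scaled by library and the others by gene length as well. The submitters' processing notes name hg19, HISAT2, HISAT, TopHat2 and Bowtie2; what counted the reads, its annotation and its use of strand are not given in the sources used here. Summed over libraries, FPKM was never below 1.00, so less expressed genes are not listed.

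Library totals were 32813003 (siNC), 35069930 (siHHLA3-1) and 26950852 (siHHLA3-3), recovered from counts and CPM; 0.305% to 0.355% of reads fell on unlisted genes. Counts were scaled with TMM in edgeR 4.0.16 (R 4.3.3). Ratios are log2 of (CPM + 1) over (CPM + 1), and folds with intervals are ratios of CPM with nothing added. A mean of 1 CPM or more was required, and 2-fold was the call. Alternatives were DESeq2 1.42.0 size factors, library totals, deposited TPM, a pseudocount of 0.1, no filter, a 5 CPM filter, 1.5-fold, leaving out carriers of either 7-mer and, added after the data were seen, GENCODE 29 lengths. Members, lists and 7-mers were chosen with earlier results of these data known. All members may be named; those past 2-fold and the 6 cytosolic and 4 mitochondrial genes with the largest ratios in each comparison are given in every library, and up to 6 genes of other lists. Promoters were matched by symbol to RefSeq (30 of 35) and UTRs to GENCODE 29 by Ensembl identifier (34 of 34). The scripts, in Python 3.11.15 with scipy 1.17.1, numpy 2.4.6, pandas 2.3.3 and matplotlib 3.10.9, were tested on simulated data. A set of marker values is not reported here.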

Additional observations from a re-analysis of the deposited data

Results flagged for a closer look

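Several synthetases lay on opposite sides of siNC in the knockdown libraries with both counting intervals excluding equality, although the difference itself was not tested and both ratios share the siNC library. With siHHLA3-1 and siHHLA3-3 in turn, the log2 ratios were -0.28 and 0.32 for IARS1, -0.26 and 0.22 for YARS1, -0.13 and 0.39 for CARS2, -0.09 and 0.29 for SARS1, and -0.12 and 0.05 for KARS1.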

How the results depend on the processing

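No paired analysis was possible because each group has 1 library. The numbers of synthetases past 2-fold were unchanged under the DESeq2 size factors, library totals, deposited TPM, pseudocount 0.1 and both other filters. A 1.5-fold threshold gave 2 with siHHLA3-3 against siNC (0 at 2-fold) and 5 for siHHLA3-3 against siHHLA3-1 (1 at 2-fold). With the deposited TPM the cytosolic medians went from -0.14 to -0.082 with siHHLA3-1 and from 0.01 to 0.077 with siHHLA3-3. The medians over all genes kept moved alike, from -0.013 to 0.04 and from -0.01 to 0.049. Group values given on the deposited TPM share this shift. On the main scaling, the cytosolic siHHLA3-3 median was -0.048 without carriers of either 7-mer, with fewer genes in the median. Of 102 ratios of single genes, 96 had 1 sign under every setting of scaling, unit, pseudocount and filter. The exceptions, all with main values between -0.06 and -0.01, were GARS1, FARS2 and TARS2 with siHHLA3-1 and FARSA, RARS1 and LARS2 with siHHLA3-3. Depth limits SARS2 (63 to 86 counts) and PARS2 (174 to 265 counts) most.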

Other observations

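Other parts of tRNA use were read from lists drawn up with earlier results known. Over 13 mitochondrial translation factors the siHHLA3-1 and siHHLA3-3 medians of the log2 ratio were -0.19 and -0.25, with 9 genes below siNC in each. Of all 13879 genes kept, 7186 and 7141 were below siNC. All 3 genes of the amidotransferase that completes glutaminyl-tRNA in mitochondria were lower with both siRNAs. In the order siNC, siHHLA3-1, siHHLA3-3, GATC stood at 22.8, 19.5 and 11.5 CPM, GATB at 25.9, 22.6 and 17.1 CPM and QRSL1 at 28.5, 23.2 and 22.3 CPM. The release factor MTRF1L had log2 ratios of -0.45 and -0.44. With each siRNA 4 of the 13 were above siNC. Among these was TSFM at 0.31 and 0.31, from only 26, 44 and 34 counts.

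The tRNA export receptor XPOT stood at 201, 130 and 237 CPM, low with siHHLA3-1 alone, within a list of 10 tRNA maturation and export genes with medians of -0.12 and 0.07. The ligase RTCB had -0.36 and 0.01. Elongation factor genes of cytosolic translation had medians of -0.20 and 0.02 over 5 genes. Among them, EEF1A1 had -0.32 and -0.06 and EEF1B2 -0.39 and -0.01. DTD1, which removes D-amino acids from tRNA, had -0.58 and -0.12.

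Of the eIF2 kinases, EIF2AK1 (HRI) stood at 247, 242 and 140.3 CPM and EIF2AK4 (GCN2) at 63.2, 54.2 and 58.2 CPM, while IMPACT, an inhibitor of GCN2 activation, was lower with both siRNAs, with log2 ratios of -0.68 and -0.60. The eIF2B subunit EIF2B2 had -0.70 and -0.37. These genes come from a list of 12 around eIF2 and eIF2B, with medians of -0.19 and -0.10. The list ran from -0.70 to 0.43 with siHHLA3-1 and from -0.81 to 0.17 with siHHLA3-3. Above siNC were 3 and 5 of the 12, where 48.2% and 48.5% of all genes were.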
